A study of Mus musculus with 2 samples.

Results

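Interferon-inducible GTPases were followed in CD45+ cells from CT-2A tumours of wildtype and Glut5 KO mice. The set held 10 genes, Gbp2, Gbp3, Gbp4, Gbp5, Gbp7, Irgm1, Igtp, Iigp1, Tgtp1 and Tgtp2, of 32285 genes in the deposited matrices. They were taken by gene symbol, and all 10 were found. No cut-off on measured values was used, but earlier results of these data were known when the set was chosen. CT-2A is a mouse glioma line. It was implanted into the brain, the tumours were taken after 14 days, and CD45+ cells (leukocytes) were selected with magnetic beads. There was 1 library per genotype: cells from wildtype mice carrying the tumour, and cells from mice labelled Glut5 KO carrying the same tumour. Glut5 is the fructose transporter encoded by Slc2a5, and the record calls the same mice Glut5 KO in its labels and knockdown in its design text. Strain, age and number of the mice, and which part of Slc2a5 was removed, are not given here. With 1 library per genotype no difference below has a replicate check. The 95% intervals cover counting error only, differences between animals are not in them, and no p-value is given.

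Interferon-gamma, made mainly by T and NK cells, binds a receptor of IFNGR1 and IFNGR2 chains, and the kinases JAK1 and JAK2 then pass the signal to the nucleus. Target promoters carry short DNA elements called gamma-activated sites (GAS), and the pathway also raises Irf1, whose product binds interferon-stimulated response elements (ISRE). Both families of GTPases are among the most strongly induced products of this pathway in mouse cells. Guanylate-binding proteins (Gbp2, Gbp3, Gbp4, Gbp5 and Gbp7) are large GTPases that assemble on pathogen vacuoles and bacteria, and several of them help to start inflammasome signalling. Immunity-related GTPases fall into effectors that load onto vacuoles (Iigp1, Tgtp1, Tgtp2) and regulators that guard the cell's own membranes (Irgm1, Igtp). Microglia and macrophages of the brain carry low levels at rest and high levels in inflammation, so the genes are often used as a readout of interferon exposure.

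Promoters are shown because the members share interferon elements. RefSeq (GRCm38.p6) start-site windows were found for 8 of the 10 genes, and none was found for Gbp4 and Iigp1. In the 250 bases before the start, both strands were searched for GAS (TTCNNNGAA) and for ISRE (GAAANNGAAA). Gbp3 has 2 start sites in the table and the others 1, which gives 9 windows. ISRE letters were present in 8 of the 9 windows, against 2.98% of 32851 promoter windows of the same length. GAS letters were present in 5 of 9, against 7.02%, and both in 5 of 9 (Gbp5, Gbp7, Igtp, Tgtp1 and Tgtp2), against 0.332%. A match describes letters and does not show binding. The last 120 bases before the start are given for 6 genes, read 5′ to 3′ on the gene's strand. Starts are those of RefSeq, and the stretches of Gbp5 and Irgm1 lie inside the GENCODE gene spans given further on, which begin farther upstream. Capitals mark GAS or ISRE letters in either orientation, and overlapping matches run together.
Gbp3, chr3:142559924-142560043, plus strand: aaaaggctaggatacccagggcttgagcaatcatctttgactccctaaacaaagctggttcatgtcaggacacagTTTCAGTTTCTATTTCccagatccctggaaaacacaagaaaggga
Gbp5, chr3:142496814-142496933, plus strand: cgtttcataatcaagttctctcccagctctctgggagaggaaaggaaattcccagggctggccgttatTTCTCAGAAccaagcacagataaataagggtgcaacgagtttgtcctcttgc
Gbp7, chr3:142530216-142530335, plus strand: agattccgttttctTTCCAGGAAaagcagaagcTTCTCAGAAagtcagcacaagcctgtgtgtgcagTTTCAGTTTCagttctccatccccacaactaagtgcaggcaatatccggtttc
Irgm1, chr11:48871421-48871540, minus strand: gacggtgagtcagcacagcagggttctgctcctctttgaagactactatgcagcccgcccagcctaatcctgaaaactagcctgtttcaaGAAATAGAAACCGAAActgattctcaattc
Igtp, chr11:58199436-58199555, plus strand: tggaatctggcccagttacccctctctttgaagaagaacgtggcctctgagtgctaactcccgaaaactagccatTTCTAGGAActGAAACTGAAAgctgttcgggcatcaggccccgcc
Tgtp2, chr11:49064213-49064332, minus strand: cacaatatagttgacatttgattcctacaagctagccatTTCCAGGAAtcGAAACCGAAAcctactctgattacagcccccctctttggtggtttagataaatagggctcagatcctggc

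The ISRE match of Gbp2 begins 59 bases before its start. In Igtp and Tgtp2 a GAS match lies just upstream of an ISRE match: in Igtp they begin 45 and 34 bases before the start, in Tgtp2 81 and 70 bases before it. Tgtp1 has the same pair, 88 and 77 bases before its start. Gbp3 and Irgm1 carry overlapping ISRE matches and no GAS match in the 250 bases. The ISRE match of Gbp5 lies 165 bases before its start, outside the stretch printed.

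The genes sit in a few clusters, and positions are from GENCODE M21 on GRCm38 (mm10 is the same build). Gbp5 (chr3:142493978-142522344), Gbp7 (chr3:142530342-142550149), Gbp3 (chr3:142560026-142573209) and Gbp2 (chr3:142620602-142638008) lie in the same cluster on the plus strand. Gbp4 (chr5:105115767-105139586, minus strand) overlaps Gbp8 and Gbp9 on the same strand. Irgm1 (chr11:48861968-48871683), Tgtp1 (chr11:48985327-48994172) and Tgtp2 (chr11:49057194-49064206) are on the minus strand. Igtp (chr11:58199556-58207591, plus strand) overlaps Irgm2 on the same strand, and Iigp1 is on the plus strand of chromosome 18. Tgtp1 overlaps Gm12185 on the same strand, and Tgtp1 and Tgtp2 are near-identical copies, so reads can be split or lost between them. The values of Tgtp1, Tgtp2, Gbp4 and Igtp are uncertain in this sense. None of the 10 is on the chromosome of Slc2a5.

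Counts are of UMIs, unique molecular identifiers that each stand for 1 captured RNA molecule. Wildtype had 116105873 UMIs in 11495 barcodes, and Glut5 KO 96851696 in 12165. Median UMIs per barcode were 8662 and 6498. Barcodes with at least 300 genes and under 10% mitochondrial UMIs were kept, 11473 and 12112. The 2 libraries share 188 barcode sequences. Slc2a5 had 384 UMIs in the wildtype and 1 in the Glut5 KO library. Cell classes came from gates on marker genes and end in -like, since they rest on transcripts alone. Of 13 gates, 8 held at least 100 cells in both libraries and were compared, and 11 held at least 20 cells in both and are given as levels. In each of the 8, from 3 to 6 of the gate's own markers were among its 10 leading genes. The gates required such markers, so this is no independent check of identity. Both libraries held cells with Xist UMIs and no Y-linked UMI, and cells with the reverse, that is, cells of both sexes, although each sample title speaks of a mouse in the singular. How many animals each library holds is not given here.

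All classes with enough cells carried the GTPases. Levels are in CPM: UMIs of the gene, or of the 10 genes together, per 1000000 UMIs of the class in that library. In wildtype, the sum of the 10 was highest at 1030 CPM in microglia-like cells (95% interval 1012 to 1048) and 1001 CPM in neutrophil-like cells (840 to 1183), whose intervals overlap. T cell-like cells followed at 909 CPM and B cell-like cells at 843 CPM, again with overlapping intervals. The lowest sum was 392 CPM in cDC1-like cells (371 to 414). The leading place of wildtype microglia-like cells did not hold in both sexes. They were at 1793 CPM in male and 435 CPM in female cells, while female T cell-like cells were at 984 CPM and female NK cell-like cells at 644 CPM. In Glut5 KO the order was led by neutrophil-like cells at 1497 CPM and collagen-expressing cells at 1245 CPM, with monocyte/macrophage-like cells next at 1061 CPM. The lowest was again cDC1-like cells at 394 CPM. Only 21 wildtype and 96 Glut5 KO barcodes passed the neutrophil gate, and 25 and 255 the B cell gate, so these 2 classes are given as levels only.

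Single members differed in where they were highest. Gbp2 led in wildtype microglia-like cells at 310 CPM, above migratory dendritic cell-like cells at 262 CPM and beyond their interval, while the wide intervals of B cell-like (256 CPM) and neutrophil-like cells (241 CPM) overlap it. In Glut5 KO it was highest in neutrophil-like cells, at 632 CPM. Gbp5 was highest in migratory dendritic cell-like cells of wildtype, at 129.7 CPM with an interval overlapped by that of neutrophil-like cells (94.98 CPM), and in Glut5 KO in neutrophil-like cells at 135 CPM, whose interval overlaps that of migratory dendritic cell-like cells (122 CPM). Igtp was highest in T cell-like cells of both libraries, at 205 CPM each, although in each library the next class (124 CPM in wildtype neutrophil-like cells, 175 CPM in Glut5 KO collagen-expressing cells) had an interval that overlaps it. Iigp1 led in wildtype microglia-like cells at 197 CPM and in Glut5 KO collagen-expressing cells at 267 CPM, each beyond the interval of the next class. Both wildtype microglia-like levels differed by sex. Gbp2 was at 102 CPM in female and 568 CPM in male cells, and Iigp1 at 52.5 and 390 CPM. Female wildtype collagen-expressing cells were higher than female microglia-like cells, at 129 CPM for Gbp2 and 103 CPM for Iigp1. Tgtp1 was low everywhere, from 0 to 14.4 CPM. In wildtype plasmacytoid dendritic cell-like cells it had 0 UMIs, which allows up to 4.61 CPM by a floor of 3 counts.

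**Figure D1:**
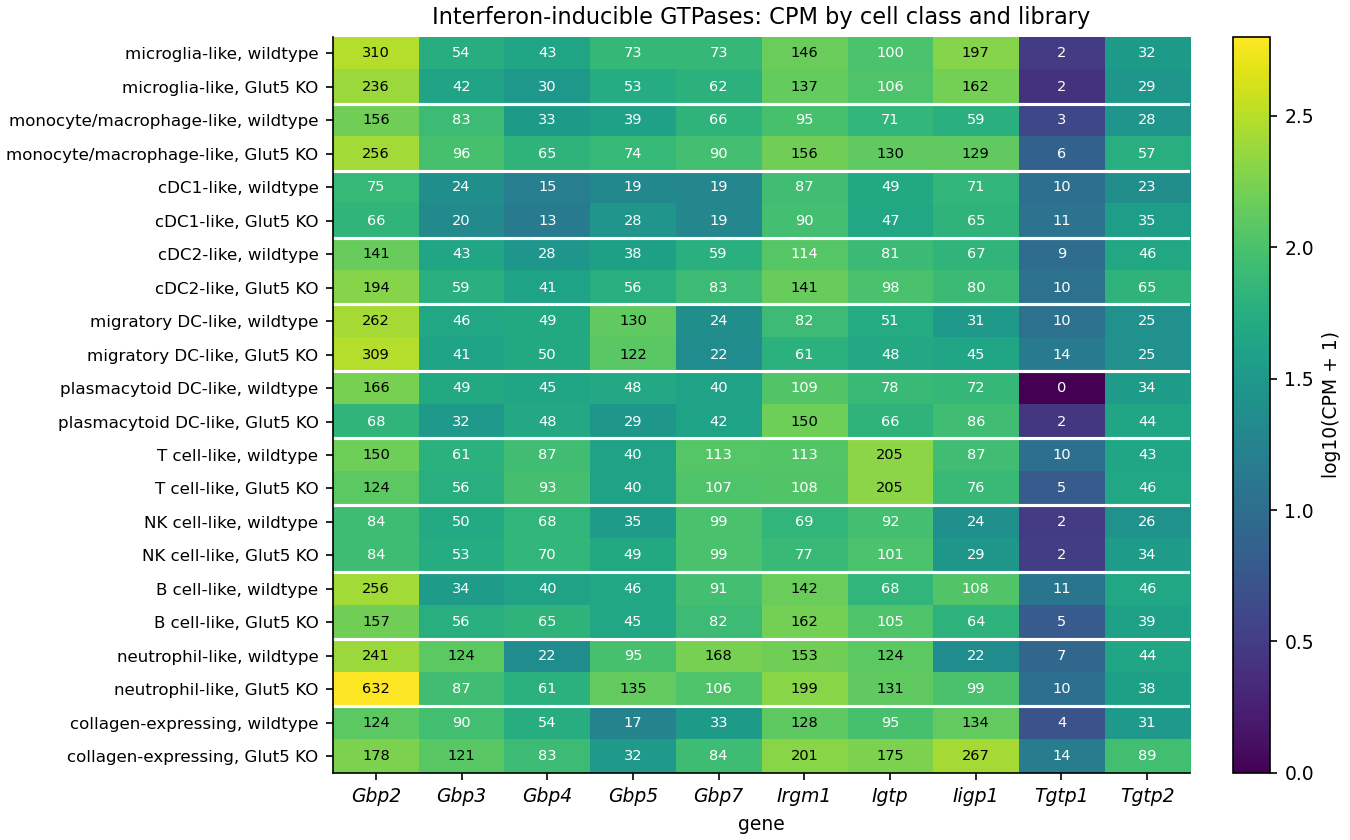
Level of each of the 10 GTPase genes (columns) in 11 cell classes of the wildtype and Glut5 KO libraries (rows), as log10(CPM + 1) in colour with the CPM printed in each cell. Monocyte/macrophage-like rows brighten from wildtype to Glut5 KO (sum 632 to 1061 CPM), while microglia-like rows darken slightly (1030 to 859 CPM).

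In monocyte/macrophage-like cells, the class with most cells (6450 wildtype, 6283 Glut5 KO), the 10 genes summed to 632 CPM in wildtype and 1061 CPM in Glut5 KO, 1.68-fold higher (log2 ratio 0.75, interval 0.73 to 0.77). At least 1.5-fold higher were 8 of the 10 members and none was lower, and all 10 intervals lay above 0. Among all 14313 genes with at least 20 UMIs in the class, 8.04% were at least 1.5-fold higher and 7.32% at least 1.5-fold lower. The members' median log2 ratio was 0.91 and that of all genes -0.06. With every cell thinned to 1000 UMIs, 6 members were at least 1.5-fold higher, since Gbp2 (0.36) and Irgm1 (0.35) fell under it, and the interval of Gbp3 included 0 (0.07, -0.09 to 0.24).

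Among the guanylate-binding proteins, Gbp4 and Gbp5 had the larger log2 ratios in this class, with overlapping intervals. Gbp4 was at 33.0 CPM in wildtype and 65.0 CPM in Glut5 KO (0.98, 0.90 to 1.06). Gbp5, whose product promotes NLRP3 inflammasome assembly, was at 38.7 and 74.3 CPM (0.94, 0.87 to 1.02). Gbp2, which coats vacuoles, was at 156 and 256 CPM (0.72, 0.68 to 0.76). The other two members of this family had the smallest ratios of the 10. Gbp7 was at 66.1 and 89.98 CPM (0.45, 0.39 to 0.51), and Gbp3 at 83.1 and 96.4 CPM (0.21, 0.16 to 0.27), both under 1.5-fold. The 4 members on chromosome 3 thus spanned 1.16-fold for Gbp3 to 1.92-fold for Gbp5.

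The 5 immunity-related GTPases were at least 1.5-fold higher over all cells of the class, and 4 of them when thinned. Iigp1, an effector that loads onto parasite vacuoles, was at 58.6 CPM in wildtype and 129 CPM in Glut5 KO (log2 ratio 1.13, 1.07 to 1.19). The effector copies Tgtp1 and Tgtp2 were at 3.07 and 6.47 CPM (1.08, 0.82 to 1.34) and at 27.7 and 57.4 CPM (1.05, 0.97 to 1.14). The wide interval of Tgtp1 covers that of Iigp1. Of the regulators, Igtp was at 71.2 and 130 CPM (0.87, 0.82 to 0.93) and Irgm1 at 94.9 and 156 CPM (0.72, 0.67 to 0.77).

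Microglia-like cells (1340 wildtype, 1144 Glut5 KO) went the other way by a smaller amount: 1030 CPM in wildtype and 859 CPM in Glut5 KO, 1.20-fold lower (log2 ratio -0.26, -0.30 to -0.22). No member was past 1.5-fold in either direction, where 3.45% of 12215 genes were higher and 13.2% lower. Intervals lay below 0 for 6 members. Gbp4 was at 42.9 and 29.8 CPM (-0.53, -0.74 to -0.31) and Gbp5 at 72.9 and 52.9 CPM (-0.46, -0.63 to -0.30). Gbp2 was at 310 and 236 CPM (-0.39, -0.47 to -0.31) and Gbp3 at 54.1 and 42.1 CPM (-0.36, -0.55 to -0.18). These 4 are all guanylate-binding proteins. Iigp1 was at 197 and 162 CPM (-0.29, -0.38 to -0.19) and Gbp7 at 73.1 and 61.9 CPM (-0.24, -0.40 to -0.09). Irgm1 (146 and 137 CPM), Igtp (99.6 and 106 CPM), Tgtp1 (2.05 and 1.56 CPM) and Tgtp2 (32.3 and 29.2 CPM) had intervals that include 0. With every cell thinned to 1000 UMIs the summed log2 ratio in microglia-like cells was -0.0079 (-0.13 to 0.12). Thinned to 5000 UMIs, mean member UMIs per cell were 4.93 in wildtype and 4.23 in Glut5 KO. In female and male microglia-like cells the direction was opposite, as given with the sexes.

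**Figure D2:**
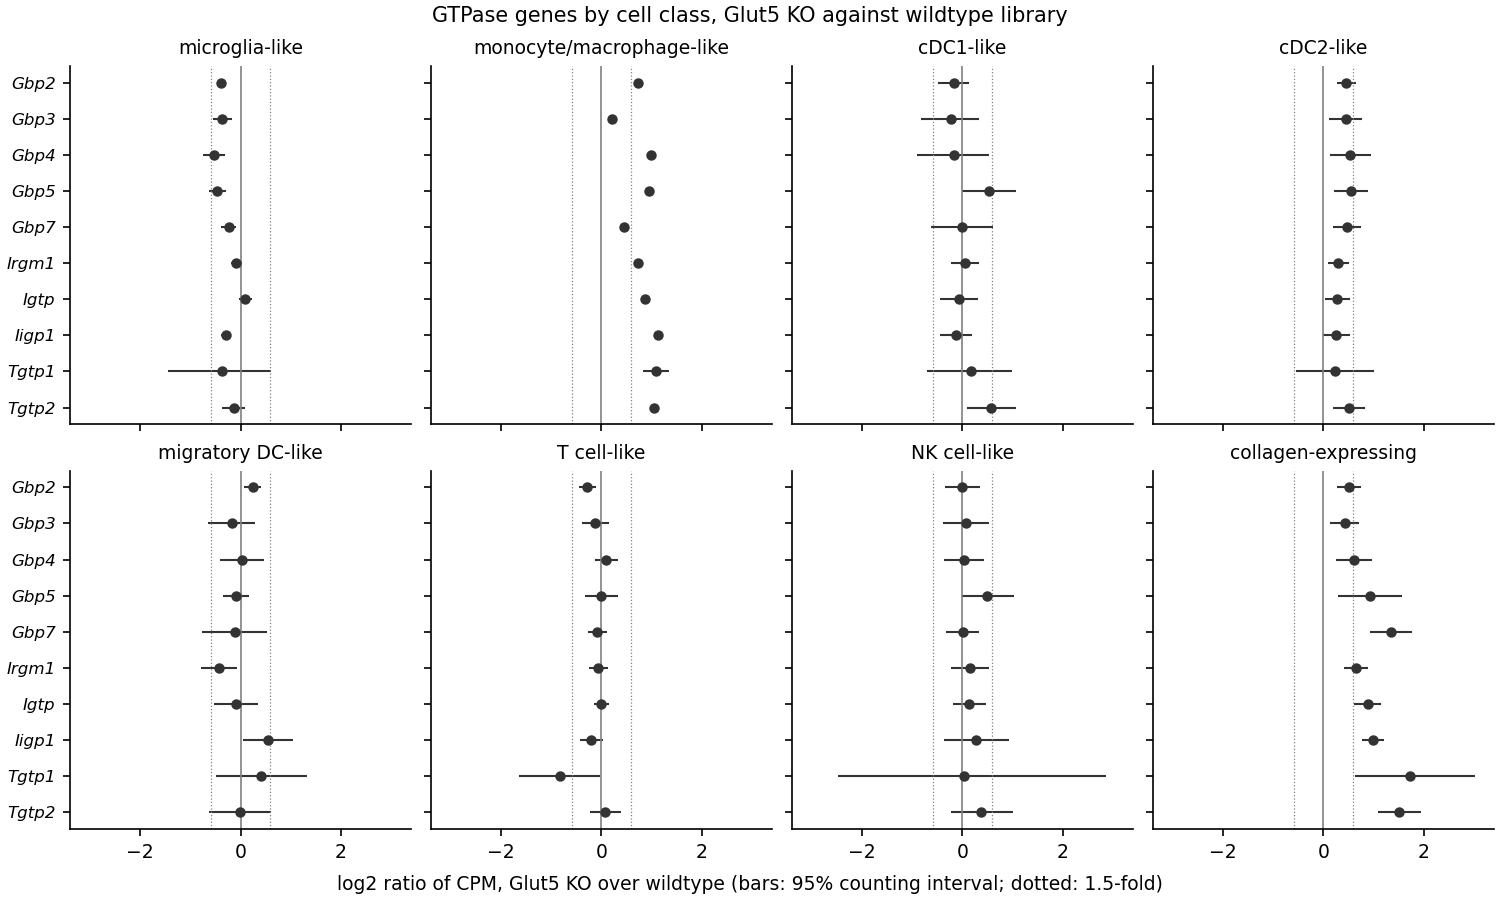
Log2 ratio of CPM, Glut5 KO over wildtype, for the 10 genes in 8 cell classes, with 95% counting intervals as bars, 0 as a grey line and 1.5-fold as dotted lines. In monocyte/macrophage-like and collagen-expressing cells 8 of 10 points lie past 1.5-fold to the right, while in microglia-like cells none lies past 1.5-fold.

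The monocyte/macrophage gate spans newly arrived monocytes and tumour macrophages, and the 2 libraries held different shares of them. Cells with more UMIs of monocyte markers (such as Ccr2, Ly6c2 and Plac8) than of macrophage markers (Ms4a7, Mrc1, Arg1 and Tgfbi) were 22.2% of kept wildtype barcodes and 26.0% of Glut5 KO ones. The rest, called the macrophage side, were 34.0% and 25.8%. In wildtype, the GTPase sum was 1257 CPM on the monocyte side and 411 CPM on the macrophage side. In Glut5 KO the sums were 1575 and 756 CPM. The log2 ratio between libraries was 0.33 on the monocyte side (0.30 to 0.35) and 0.88 on the macrophage side (0.85 to 0.91), so the direction held within both. The markers that set the sides include Ly6c2, Plac8, Mrc1 and Arg1, which may respond to interferon themselves. Their part in the levels and ratios of the sides was not tested. On the monocyte side 1 of 10 members, Iigp1, was at least 1.5-fold higher and 0 lower (background 6.19% and 5.04%), and on the macrophage side 8 of 10 were higher and 0 lower (background 6.80% and 5.88%).

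Member by member, the macrophage side had the larger ratio for each of the 10 genes, a difference that was not tested. Iigp1 was at 111 and 176 CPM on the monocyte side, and at 40.3 and 100.2 CPM on the macrophage side. Gbp2 was at 366 and 418 CPM on the monocyte side, and at 81.3 and 160.3 CPM on the macrophage side. Gbp4 was at 72.7 and 99.2 CPM, and at 18.9 and 44.7 CPM, in the same order. Gbp3 was the exception to the common direction on the monocyte side, at 119.98 and 117 CPM with an interval that includes 0, and was at 70.1 and 84.2 CPM on the macrophage side. In each of these 4 genes the Glut5 KO macrophage side stayed under the wildtype monocyte side. Among dividing monocyte/macrophage-like cells (at least 3 of 6 division markers, 982 and 499 cells) the sum was 372 and 794 CPM, and among the others 724 and 1108 CPM. The log2 ratios were 1.10 and 0.61.

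**Figure D3:**
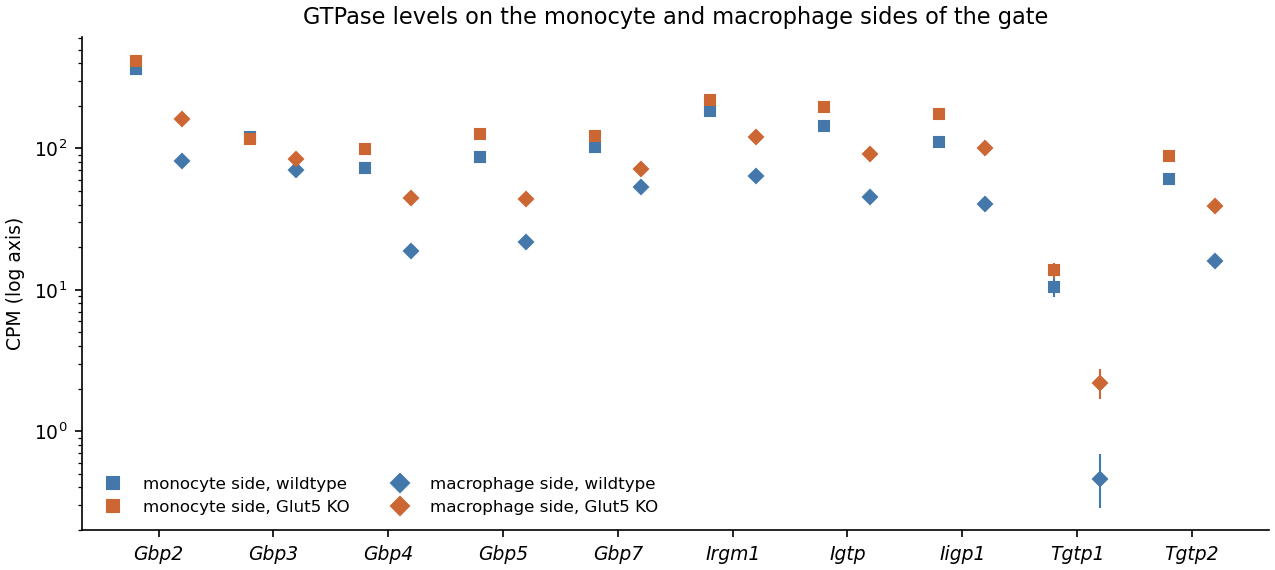
CPM of each GTPase gene on a log axis, for the monocyte side (squares) and the macrophage side (diamonds) of the monocyte/macrophage gate, wildtype in blue and Glut5 KO in orange, with 95% counting intervals. The distance between blue and orange is wider for the diamonds (sum 411 to 756 CPM) than for the squares (1257 to 1575 CPM).

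The difference was also read per cell, at equal depth. After thinning to 5000 UMIs, which left out 1340 wildtype and 2165 Glut5 KO cells of the class, the median monocyte/macrophage-like cell had 2 GTPase UMIs in wildtype and 4 in Glut5 KO. Cells with 0 were 22.8% in wildtype and 12.99% in Glut5 KO, and cells with 10 or more were 9.45% and 19.3%. At least 3 different members were seen in 31.2% and 52.8% of cells. The whole distribution was thus placed higher, at its lower end and at its upper end. In microglia-like cells the median was 3 in wildtype and 2 in Glut5 KO, with 16.7% and 18.2% of cells at 0 and 17.6% and 11.3% at 10 or more. Here 461 wildtype and 491 Glut5 KO cells were left out.

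Thinned to 1000 UMIs, 41.4% of wildtype (40.1 to 42.6, exact Clopper-Pearson interval) and 55.8% of Glut5 KO monocyte/macrophage-like cells (54.5 to 57.1) had a UMI of any member. Unthinned, the shares were 88.2% and 88.3%, at median depths of 8817 and 7146 UMIs. In microglia-like cells the thinned shares were 44.5% and 45.8%. No class here is known to lack these genes, and the lowest share was 12.3% in Glut5 KO plasma cell-like cells (81 cells, median 22753 UMIs). Free RNA can give UMIs to any barcode, and its part in these shares was not tested.

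**Figure D4:**
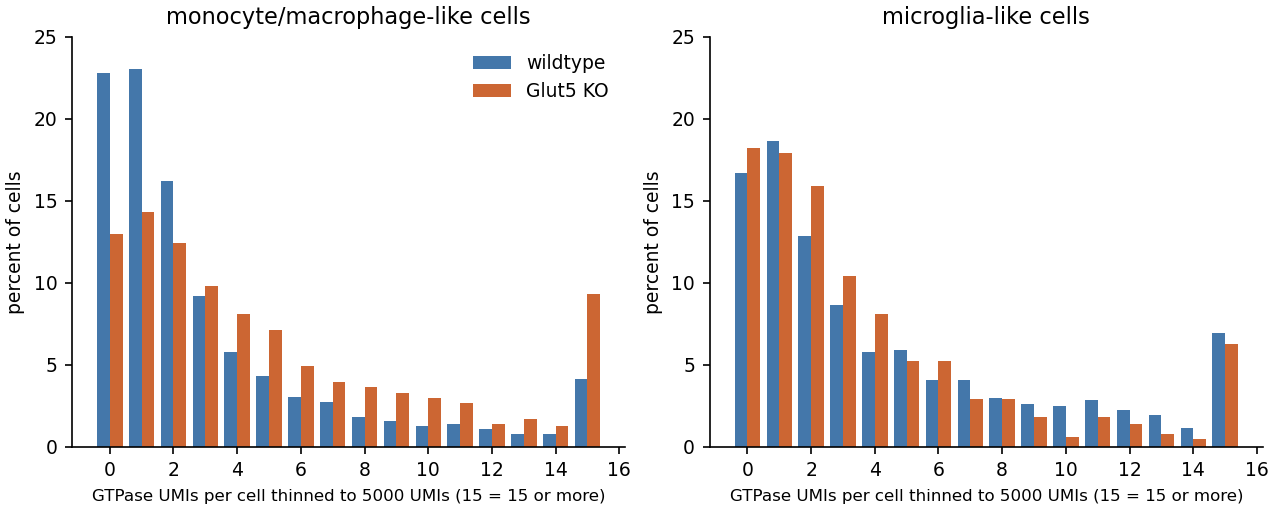
Percent of cells by the number of GTPase UMIs in a cell thinned to 5000 UMIs (15 stands for 15 or more), for monocyte/macrophage-like (left) and microglia-like cells (right), wildtype in blue and Glut5 KO in orange. On the left the share at 0 is 22.8% in wildtype and 12.99% in Glut5 KO; on the right it is 16.7% and 18.2%.

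Dendritic cells showed smaller differences. In cDC2-like cells the sum was 626 CPM in wildtype and 828 CPM in Glut5 KO (log2 ratio 0.40, 0.32 to 0.49). No member was past 1.5-fold (4.78% of genes were higher and 8.75% lower), 8 intervals lay above 0, and the members' median log2 ratio was 0.46. Thinned to 1000 UMIs, mean member UMIs per cDC2-like cell were 0.78 in wildtype and 0.72 in Glut5 KO. The direction of the sum was thus not kept at that depth. It was kept at 5000 UMIs, with means of 3.57 and 4.198, where 15 wildtype and 32 Glut5 KO cells were left out. The sexes differed in this class, as given with them. Gbp2 was at 141 and 194 CPM and Gbp5 at 38.4 and 56.4 CPM. In cDC1-like cells the sum was 392 and 394 CPM (0.01, -0.12 to 0.14), with no member past 1.5-fold in either direction (6.14% of genes higher, 7.29% lower). Their mean member UMIs per cell were 0.40 and 0.54 when thinned to 1000 UMIs, and 2.04 and 2.05 at 5000. In migratory dendritic cell-like cells, which hold a high Gbp5 level, the sum was 711 and 737 CPM (0.05, -0.06 to 0.16), again with none past 1.5-fold (6.99% higher, 7.31% lower). Plasmacytoid dendritic cell-like cells (79 and 188) were at 640 and 565 CPM, with Gbp2 at 166 and 67.5 CPM.

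As whole classes, T cell-like and NK cell-like cells, the main makers of interferon-gamma, differed little in their own GTPase sums. T cells with Cd8 genes had a lower sum in Glut5 KO, by an amount that varied with depth, and the sexes differed, as given with them. T cell-like cells (344 and 616) were at 909 and 860 CPM (log2 ratio -0.08, -0.15 to -0.01). Tgtp1 was the 1 member at least 1.5-fold lower (background 6.08%), at 9.67 and 5.43 CPM from 30 and 27 UMIs, and none was higher (7.06%). Markers of monocytes and macrophages summed to 3643 and 3224 CPM in the T cell gate, with none of the 15 at 0, and their part in these values was not tested. Within it, cells with Cd8a or Cd8b1 and no Cd4 summed to 751 and 579 CPM (-0.38, -0.51 to -0.24), with Gbp2 (138 and 62.7 CPM) and Iigp1 (54.7 and 35.7 CPM) at least 1.5-fold lower of 9 measured members (9.08% of genes) and none higher (10.7%). In the Cd8 cells, mean member UMIs per cell were 0.71 and 0.70 when thinned to 1000 UMIs (118 and 197 cells). At 5000 UMIs they were 4.01 and 2.92 (86 and 119 cells). Cells with Cd4 and neither Cd8 gene summed to 858 and 952 CPM (0.15, 0.02 to 0.28), with 1 of 9 higher, Gbp5 at 30.5 and 48.0 CPM (11.5% of genes), and 0 lower (8.72%). NK cell-like cells were at 549 and 599 CPM (0.12, -0.01 to 0.26), with 0 of 9 measured members past 1.5-fold (7.90% higher, 6.07% lower).

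A gate on collagen and other stromal genes (led by Col1a1, Mgp, Col3a1 and Bgn) held 164 wildtype and 142 Glut5 KO cells, although the cells had been selected for CD45. Their GTPase sum was 710 and 1245 CPM (log2 ratio 0.81, 0.72 to 0.91). At least 1.5-fold higher were 8 of 10 members, in a class where 14.6% of genes were, and 0 lower (11.6%). Iigp1 was at 134 and 267 CPM and Tgtp2 at 31.2 and 89.2 CPM. Cells of readable sex were 122 female and 6 male in wildtype, and 94 and 5 in Glut5 KO.

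The cells of each library were also split by sex. Female cells had Xist UMIs and no UMI of 4 Y-linked genes, and male cells the reverse. Kept barcodes with neither signal (4520 in wildtype, 5555 in Glut5 KO) or with both (442 and 438) were left out. In monocyte/macrophage-like cells the GTPase sum was 394 CPM in wildtype female, 664 in wildtype male, 927 in Glut5 KO female and 1033 CPM in Glut5 KO male cells. Both Glut5 KO values were above both wildtype values. Glut5 KO over wildtype gave a log2 ratio of 1.24 in female cells (1.20 to 1.27) and 0.64 in male cells (0.61 to 0.67). At least 1.5-fold higher were 9 members in female cells (7.03% of genes higher, 7.49% lower) and 7 in male cells (8.68% and 8.95%), with 0 lower in either. Gbp3 in male cells was at 87.0 and 86.5 CPM, the only member with a ratio below 0 in either sex. Iigp1 was at 26.3 and 106 CPM in female cells and at 67.9 and 146 CPM in male cells.

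In microglia-like cells the sexes differed more than the genotypes. The sum was 435 CPM in wildtype female, 1793 in wildtype male, 608 in Glut5 KO female and 1299 CPM in Glut5 KO male cells. Female cells were thus higher in Glut5 KO (log2 ratio 0.48, 0.40 to 0.56) and male cells lower (-0.47, -0.53 to -0.41), while female over male within wildtype was -2.04. Past 1.5-fold were 3 of 9 measured members in female cells, all higher (3.68% of genes higher, 18.7% lower), and 3 of 10 in male cells, all lower (6.25% and 12.1%). Iigp1 was at 52.5 and 106 CPM in female cells and at 390 and 268 CPM in male cells. There were 455 wildtype and 407 Glut5 KO female cells, and 308 and 233 male cells, with median depths from 10136 to 13045 UMIs in the 4 sets. Over all microglia-like cells the medians were 7697 and 6470.5 UMIs, so cells of readable sex were the deeper ones. Sex here may stand for single animals, and within a library animal and sex cannot be told apart.

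Other classes also varied between the sexes. The monocyte side was at 673 and 1323 CPM in female and 1486 and 1694 CPM in male cells, and the macrophage side at 333 and 787 CPM and 436 and 645 CPM. The sum was higher in Glut5 KO in both sexes on each side, and wildtype female cells were the lowest of the 4 sets. In male cells of the monocyte side the log2 ratio of the sum was 0.19. Gbp3 was lower there (-0.30, -0.46 to -0.15), and Gbp7 (-0.07) and Gbp2 (-0.02) were below 0 with intervals that include 0. In cDC2-like cells the sum was 418 and 935 CPM in female and 675 and 753 CPM in male cells. There 9 of 9 measured members were at least 1.5-fold higher in female cells (8.17% of genes higher, 12.7% lower) and 1 of 10 in male cells (9.64% and 10.1%), with 0 lower in either. In cDC1-like cells it was 207 and 350 CPM in female and 488 and 403 CPM in male cells, so the directions were opposite. T cell-like cells had log2 ratios of the sum of -0.05 in female (-0.21 to 0.12) and -0.27 in male cells (-0.38 to -0.16). NK cell-like cells had -0.25 in female (-0.55 to 0.07) and 0.37 in male cells (0.13 to 0.60).

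**Figure D5:**
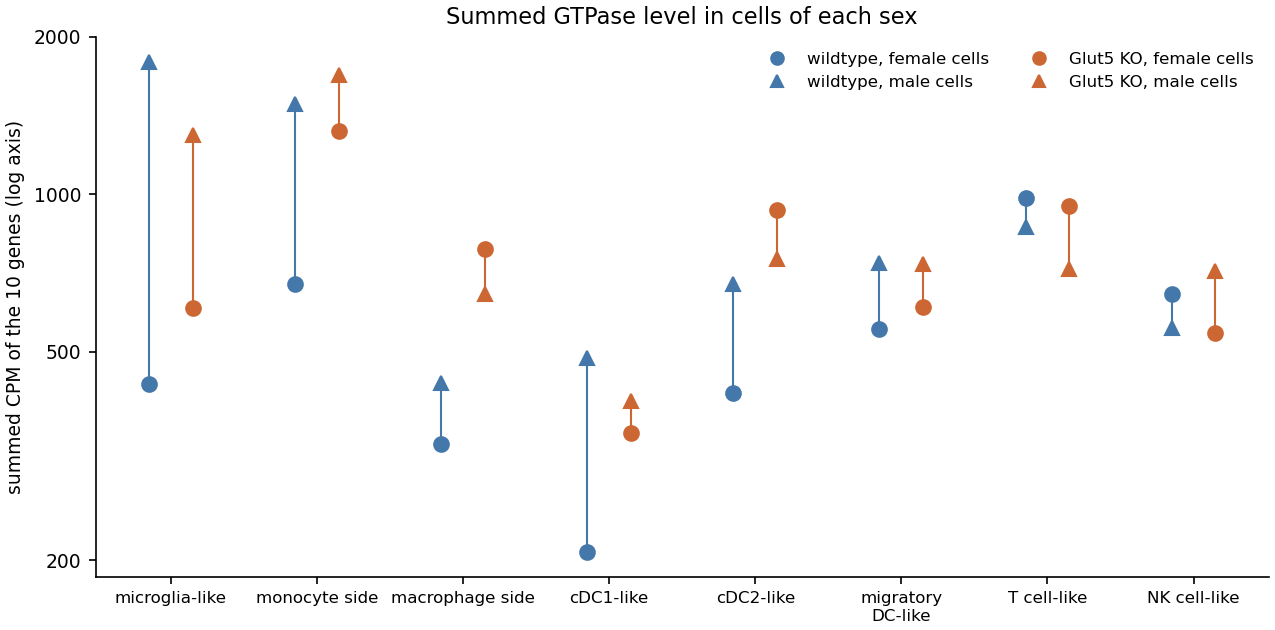
Summed CPM of the 10 GTPase genes on a log axis, in female cells (circles) and male cells (triangles) of wildtype (blue) and Glut5 KO (orange), with the 2 sexes of a library joined by a line. In microglia-like cells the wildtype line runs from 435 to 1793 CPM and encloses both Glut5 KO points, while on the macrophage side both Glut5 KO points (787 and 645 CPM) lie above both wildtype points.

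Interferon-gamma itself had the same level over all kept cells, 12.8 CPM in each library (1485 and 1239 UMIs), but its split over the classes differed. T cell-like cells held 72.6% of Ifng UMIs in wildtype and 50.6% in Glut5 KO, at 348 and 126 CPM. By sex, Ifng was at 525 and 199 CPM in male T cell-like cells (log2 ratio -1.40, -1.57 to -1.23) and at 55.4 and 77.1 CPM in female ones, whose interval includes 0 (0.46, -0.20 to 1.20). The wildtype T cell UMIs were in 59 of 344 cells, and those of Glut5 KO in 117 of 616. NK cell-like cells were at 38.9 and 58.7 CPM, T cells with Cd8 genes at 41.0 and 72.0 CPM, and T cells with Cd4 at 418 and 273 CPM. The Cd8 set held 118 and 202 of the T cell-like cells, and the Cd4 set 74 and 176. T cell-like cells in neither set held most of the wildtype T cell Ifng UMIs. The values of these sets thus do not by themselves account for the lower level of the whole class in Glut5 KO. Mixed barcodes held 22.4% and 32.2% of Ifng UMIs. They had passed more than 1 gate, or a T, NK, B, plasma or plasmacytoid gate with too many C1qa, C1qb, C1qc and Lyz2 UMIs. Monocyte/macrophage-like cells had 17 and 74 Ifng UMIs, in 14 and 31 cells.

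The receptor and signalling genes of the pathway were a mixed group. Of 16 on the list, all measured in monocyte/macrophage-like cells, 5 were at least 1.5-fold higher and 0 lower (median 0.26). Of all genes there, 8.04% were higher and 7.32% lower. Ifngr1, the ligand-binding chain, was at 289 and 267 CPM (-0.12) and Ifngr2, the signalling chain, at 233 and 229 CPM (-0.03). Irf1, a transcription factor, was higher, at 150 and 256 CPM (0.77). Ptpn11, a phosphatase, was at 37.5 and 33.4 CPM (-0.17). In microglia-like cells Ifngr1 was at 214 and 323 CPM (0.60), Ifngr2 at 198 and 219 CPM (0.14) and Irf1 at 254 and 221 CPM (-0.20). There 1 of 15 measured genes was at least 1.5-fold higher and 1 lower (3.45% and 13.2% of all genes).

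Interferon-responsive genes outside the set were counted in the same way in monocyte/macrophage-like cells, where 8.04% of all genes were at least 1.5-fold higher. Of 14 other interferon-inducible GTPases, 12 were at least 1.5-fold higher and 0 lower, with a median log2 ratio of 0.76. F830016B08Rik was at 2.99 and 8.67 CPM (1.53) and Gbp10 at 1.14 and 2.70 CPM (1.24), while 9930111J21Rik1 (0.56) and 9930111J21Rik2 (0.44) were under 1.5-fold. Of 25 measured interferon-gamma targets that are not GTPases, 19 were higher and 0 lower, with a median of 0.80. Nos2, the inducible nitric oxide synthase, was at 2.06 and 10.6 CPM (2.36) and Upp1, a uridine phosphorylase, at 7.10 and 29.5 CPM (2.05). Psme1, a proteasome activator subunit (0.17), and Wars, a tRNA synthetase (0.09), were nearest to 0.

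Of genes best known as type I interferon targets, 16 of 24 measured were at least 1.5-fold higher and 0 lower, with a median of 0.72. Ifi44 was at 20.4 and 44.1 CPM (1.11) and Ifit3b at 42.3 and 87.3 CPM (1.04). Siglec1, a sialic-acid receptor of macrophages (0.04), and Ifi27l2a (0.11) were nearest to 0. On the monocyte side 4 of 14 GTPases, 4 of 25 interferon-gamma targets and 4 of 24 type I genes were at least 1.5-fold higher (6.19% of all genes), and on the macrophage side 13 of 14, 18 of 24 and 18 of 24 (6.80%). In microglia-like cells, where 3.45% of all genes were higher and 13.2% lower, these lists had 1 higher and 3 lower of 14 GTPases, 0 and 3 of 23 interferon-gamma targets, and 0 and 0 of 24 type I genes.

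Partners that act with the GTPases at vacuoles were not past 1.5-fold. Of 16 autophagy-conjugation and ubiquitin genes 0 were higher and 0 lower in monocyte/macrophage-like cells (median 0.03), where 8.04% of all genes were higher and 7.32% lower. Trim21 (0.46) and Rnf213 (0.36), both ubiquitin ligases, had the highest ratios, and Atg7 (-0.13) and Atg16l1 (-0.11) the lowest. Of 10 inflammasome genes 1 was higher and 0 lower. The 1 was Irgm2, at 22.6 and 38.0 CPM (0.75), which was also counted above among the other interferon-inducible GTPases. Casp4, the caspase that senses lipopolysaccharide, followed (0.56), Aim2, a DNA sensor, was near 0 (0.07), and Pycard, the inflammasome adaptor, was at 395 and 314 CPM (-0.33). Of 10 genes raised by tissue dissociation 0 were higher and 0 lower, with a median of 0.19. Dusp1 (0.45) and Fos (0.41) had the highest ratios and Hspa1a (-0.06) and Hspa1b (0.09) the lowest.

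Genes whose pattern was most like the mean of the 10 were sought over 16 points, 8 classes in 2 libraries, among 12661 genes. By Pearson r of log2(CPM + 1) they were Ifit3 (0.86), Ifit1 (0.85), Ifit3b (0.84), Rtp4 (0.84), Ddx60 (0.82) and Ifih1 (0.80). The points share libraries and depth, so r is a description. Of the members themselves Gbp3 (0.79), Igtp (0.78) and Tgtp2 (0.78) followed the mean most closely, and Gbp5 (0.29) and Tgtp1 (0.14) least.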

How the data were processed

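The deposited values are raw UMI counts per gene and barcode, with no normalization by the authors, per the file headers. Library chemistry was 10x 5′ v2 per the labels' protocols. The submitters' processing notes list Cell Ranger 3.1.0 and mm10, but version 7.0.1 stands in the header of the matrices. Whether intron reads were counted is not given in the sources used here, and the strand setting is likewise not given.

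Each of the 2 samples is 1 library, so no replicate test was possible. UMIs were summed per gate and library and scaled to CPM with Python 3.11.15, NumPy 2.4.6, SciPy 1.17.1 and pandas 2.3.3. Levels have exact Poisson intervals. Log2 ratios had 0.5 added to each count and have exact conditional binomial intervals. A gene was measured with at least 20 UMIs over both libraries and called at 1.5-fold, and the procedure was tested on simulated data. Lineage gates needed 3 marker genes (5 for cDC1, migratory and plasmacytoid dendritic cells). Microglia and monocyte/macrophage gates needed 2 marker genes and at least 2 times the other's marker UMIs. Gate details were set after seeing the data: 9 markers found too widely were left out, and T, NK, B, plasma and plasmacytoid gates needed under 100 UMIs per 10000 from C1qa, C1qb, C1qc and Lyz2. Barcodes passing several gates, or passing a gate with this limit while at or over it, were set aside as mixed. No doublet caller was used in the main values, and the top 8% of Scrublet scores (scanpy 1.11.5) were removed as an alternative.

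The members and gene lists were chosen with earlier results of these data known. Named genes were all members, Ifng, its receptors, Irf1, Slc2a5, the 2 highest and 2 lowest ratios of each list among genes with at least 100 UMIs, and the 6 genes most like the members' mean among those with at least 200 UMIs, except 1 gene that is not reported here. Of the gene IDs, 99.6% were in GENCODE M21. Alternatives were scaling, gates, thinning, sex, added counts, gene minimums, the sides of the gate and division.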

Additional observations from a re-analysis of the deposited data

Results flagged for a closer look

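The GTPase difference had opposite directions in monocyte/macrophage-like and microglia-like cells, with both counting intervals off 0, for the sum and for 6 members. With cells thinned to 1000 UMIs the microglia-like direction of the sum was lost (-0.0079, -0.13 to 0.12), and 7 of 10 members were above 0. Thinned to 5000 UMIs it was kept, with mean member UMIs per cell of 4.93 in wildtype and 4.23 in Glut5 KO. That depth left out 461 and 491 microglia-like cells. On the log2 scale, the ratio in monocyte/macrophage-like minus that in microglia-like cells was 1.01 for all 10 genes together, 1.504 for Gbp4, 1.42 for Iigp1, 1.40 for Gbp5, 1.11 for Gbp2, 0.69 for Gbp7 and 0.58 for Gbp3. The difference between the classes was not tested, since there is 1 library per genotype.

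Within microglia-like cells, female and male cells also had opposite directions. Female minus male log2 ratios were 0.95 for the sum, 1.55 for Iigp1, 1.38 for Gbp4, 1.23 for Tgtp2, 1.04 for Irgm1 and 0.68 for Gbp2. In cDC1-like cells the same gap was 1.03 for the sum and 1.996 for Gbp2, from 41 and 60 female and 87 and 26 male cells. These differences were not tested, and the number of animals behind each sex is not given in the sources used here.

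Barcodes outside the comparisons carried the GTPases too. Mixed barcodes (707 and 737) were at 623 CPM in wildtype and 800 CPM in Glut5 KO, a log2 ratio of 0.36. They had passed more than 1 gate, or were at or over the C1qa, C1qb, C1qc and Lyz2 limit of a gate that had one. Those that passed no gate (1247 and 1551) were at 522 and 705 CPM, a log2 ratio of 0.43.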

How the results depend on the processing

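In monocyte/macrophage-like cells the summed log2 ratio of 0.75 was 0.78 with a gate without Ly6c2, Plac8, Mrc1 and Arg1, 0.81 when scaled by the median ratio of genes with at least 100 UMIs, and 0.55 with cells thinned to 1000 UMIs. It was 1.24 in female and 0.64 in male cells. Alternatives added after seeing the data gave 0.33 on the monocyte side, 0.88 on the macrophage side and 0.61 in non-dividing cells. The count of members at least 1.5-fold higher, 8, was 1 on the monocyte side, 6 when thinned, 9 in female, 7 in male and 7 in non-dividing cells. The direction was the same in all 12 settings for the sum and, apart from Gbp3 in male cells (-0.01) and on the monocyte side (-0.04), for each member.

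In microglia-like cells the log2 ratio of -0.26 was -0.31 with a stricter gate, -0.19 with median scaling, -0.0079 when thinned and -0.47 in male cells. It turned to 0.48 in female cells, where 3 members were at least 1.5-fold higher instead of 0. The cause was not tested. Thinning left 7 of 10 members above 0, and female cells 9.

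No paired analysis was possible because each genotype had 1 library, with none to leave out. Depth limits Tgtp1 most: 39 UMIs in microglia-like and 7 in NK cell-like cells.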
